A study of Mus musculus with 26 samples.

Results

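The genes described here are 40 genes of cell division, those that copy DNA in S phase and those that drive the G2 phase and mitosis, measured in mouse aorta. They were chosen by name, as 40 symbols that each matched 1 of the 54532 Ensembl identifiers in the count files, and not by their values. By role they comprise 7 cyclins and cyclin-dependent kinase genes, 5 mitotic kinase and checkpoint genes, 9 spindle, kinetochore and motor genes, 4 genes of chromosome structure, the passenger complex and transcription, 2 genes of the anaphase-promoting complex, 2 of cytokinesis, 7 of replication and 4 of nucleotide supply.

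The study sequenced RNA from the aorta of male mice in 26 libraries, to compare mice heterozygous for Fbn1 C1041G with wild-type (WT) littermates and to compare 2 antisense treatments. Fbn1 encodes fibrillin-1 of the elastic tissue, and C1041G/+ mice are a model of Marfan syndrome with aneurysm of the ascending aorta. The 16 untreated libraries were 4 of C1041G/+ ascending aorta (numbered 2, 4, 6 and 8), 4 of WT ascending aorta (1, 3, 5 and 7), 4 of C1041G/+ descending aorta (2, 4, 6 and 8) and 4 of WT descending aorta (1, 3, 5 and 7). The other 10 were of ascending aorta from C1041G/+ mice, 5 given AGT-ASO, an antisense oligonucleotide against angiotensinogen mRNA, and 5 given a control ASO. All mice of the antisense experiment therefore carried the mutation, in both arms. The labels give no age, and they do not say whether a library is 1 animal or a pool, so the p-values measure the spread between these libraries.

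Cell division is driven by cyclins bound to kinases. The D cyclins take a cell out of rest, E2F factors then switch on the genes of DNA replication, and Cdk1 with cyclin B, together with FOXM1 and the Aurora and Polo kinases, carries the cell through mitosis. Most adult aortic smooth muscle cells rest outside the cycle, and many of these transcripts are used as marks of the few cells that divide. Licensing factors of the MCM complex and PCNA, the clamp of the DNA polymerases, are also made by cells that are not in mitosis.

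Genes of the mitotic phase share short promoter elements, and 4 promoters are printed so that mitotic and replication genes, whose values are given separately, can be set side by side. Each is the 250 bases upstream of the RefSeq start on GRCm38.p6, 5′ to 3′ on the gene's strand, with matches on either strand in capitals. The motifs searched were the cell cycle genes homology region (TTTGAA or TTTAAA), the CCAAT box (CCAAT) and the E2F motif (TTTCCCGC, TTTCGCGC, TTTGCCGC or TTTGGCGC). Cdk1, the kinase that starts mitosis, lies at chr10:69352913-69353162 on the minus strand and held 2 homology regions, 3 CCAAT boxes and 1 E2F motif. Ccnb1, its cyclin B partner, at chr13:100786487-100786736 on the minus strand, held 1 homology region and 2 CCAAT boxes. Mcm6, a subunit of the replicative helicase, at chr1:128359706-128359955 on the minus strand, held no homology region, 2 CCAAT boxes and 3 E2F motifs, a pair of which overlap. Nusap1, a spindle protein that binds microtubules, at chr2:119618048-119618297 on the plus strand, held none of the motifs. Cdk1 and Ccnb1 were chosen after their values were seen.
Cdk1: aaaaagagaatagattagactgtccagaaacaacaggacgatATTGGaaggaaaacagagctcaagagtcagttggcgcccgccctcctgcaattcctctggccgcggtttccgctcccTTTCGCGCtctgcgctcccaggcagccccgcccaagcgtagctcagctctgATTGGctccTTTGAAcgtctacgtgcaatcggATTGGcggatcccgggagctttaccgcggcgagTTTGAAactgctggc
Ccnb1: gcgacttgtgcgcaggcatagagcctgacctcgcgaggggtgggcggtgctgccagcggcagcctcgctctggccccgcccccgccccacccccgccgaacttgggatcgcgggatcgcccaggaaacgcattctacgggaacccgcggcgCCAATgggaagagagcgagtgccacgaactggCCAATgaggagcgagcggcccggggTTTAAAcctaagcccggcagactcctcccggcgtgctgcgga
Mcm6: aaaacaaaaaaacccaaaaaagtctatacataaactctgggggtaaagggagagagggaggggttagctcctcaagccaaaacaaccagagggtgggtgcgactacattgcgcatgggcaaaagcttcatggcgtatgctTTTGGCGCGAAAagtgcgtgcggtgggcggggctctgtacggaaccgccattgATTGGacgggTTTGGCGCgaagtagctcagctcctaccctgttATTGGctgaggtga
Nusap1: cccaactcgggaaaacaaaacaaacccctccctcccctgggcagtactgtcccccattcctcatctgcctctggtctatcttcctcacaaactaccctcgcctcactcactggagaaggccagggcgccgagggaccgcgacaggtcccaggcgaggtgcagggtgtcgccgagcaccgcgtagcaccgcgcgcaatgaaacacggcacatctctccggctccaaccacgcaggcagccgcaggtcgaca

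RefSeq held a promoter for 32 of the 40 genes, and Mcm4, Kif20a, Aurkb, Ccnd1, Foxm1, Tpx2, Ccne2 and Ccna2 had no entry. The homology region occurred in 16 of the 32 promoters, against 25.5% of the promoters of all 27025 genes in the table. The CCAAT box occurred in 25 of 32 (78.1%, against 34.5%), the E2F motif in 4 of 32 (12.5%, against 1.91%), and the homology region together with the CCAAT box in 13 of 32 (40.6%, against 9.0%). By role, the homology region was in all 4 promoters of the cyclin and kinase genes, in all 3 of the chromosome and passenger genes and in both of the anaphase-promoting complex, and in 1 of 2 cytokinesis, 1 of 4 mitotic kinase and checkpoint, 2 of 7 spindle, 2 of 6 replication and 1 of 4 nucleotide supply promoters. Of the 4 promoters with an E2F motif, 3 were of replication genes. These matches describe letters in a window and were not tested.

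All 40 genes had counts in every library, between 2 and 4238 per gene. Together they took 0.0363% to 0.0695% of a library's counts, which totalled 17171652 to 28554356. Values are CPM, a gene's counts relative to the library total, scaled by TMM factors within each experiment, and the 2 experiments were scaled apart. Over the 26 libraries, 24 of the 40 genes had a median under 5 CPM, and 5 genes (Ccnd1, Anln, Mcm6, Pcna and Rrm1) had a median of at least 20 CPM. Of the other RNA in the libraries, smooth muscle markers such as Acta2 and Myh11 had the mean log2(CPM + 0.5) score of 9.65 ± 0.09 in C1041G/+ ascending, 9.47 ± 0.14 in WT ascending, 9.49 ± 0.07 in C1041G/+ descending and 9.42 ± 0.11 in WT descending aorta (SD, n = 4 each). Agt, the gene that AGT-ASO targets and whose main source is the liver, was too low in ascending aorta to be tested, averaging 0.399 ± 0.599 CPM in AGT-ASO libraries and 0.484 ± 0.193 CPM in control ASO libraries (SD, n = 5 each).

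Between genes, levels were compared per kilobase of exon. In WT ascending aorta Pcna was the highest at 22.2 CPM per kilobase, followed by Anln at 14.1, Mcm6 at 13.9, Ccnd1 at 9.54 and the helicase subunit Mcm4 at 4.98. The lowest levels were those of the kinetochore gene Ndc80 at 0.111, the checkpoint kinase Bub1 at 0.162 and the kinetochore gene Cenpf at 0.176 CPM per kilobase. The mitotic gene Cdc20, at 1.56, was above the nucleotide supply genes Tk1 (1.35), Tyms (1.23) and Rrm2 (1.03) and below Rrm1 (2.80). Tpx2, another mitotic gene, at 1.09, was above only Rrm2 of these, by less than the spread between libraries. In AGT-ASO libraries Pcna was again first, followed by Mcm6 at 14.5, Anln at 8.75 and Ccnd1 at 6.1985 CPM per kilobase. Pcna led in all 6 groups, and Mcm6 and Anln took the next 2 places in all 6. In WT ascending aorta the means of Anln and Mcm6 differed by less than the spread between libraries. In WT descending aorta Ccnd1, at 4.72 CPM per kilobase, came after Mcm4, at 4.74. Anln encodes anillin, a scaffold of the contractile ring, and it ran far above the other cytokinesis gene, Ect2, at 62.5 to 181 CPM across all libraries. Exons of 11 of the 40 genes overlap an exon of another gene on the opposite strand (Ccna2, Ccne2, Ccnd1, Plk1, Kif20a, Ube2c, Cdc20, Nusap1, Prc1, Mcm7 and Tk1), and since the strand setting of the counts is not given in the sources used here, reads of such partners cannot be told apart. Because the bulk libraries give RNA of whole tissue, fewer cells of a type and less RNA per cell cannot be told apart.

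**Figure D1:**
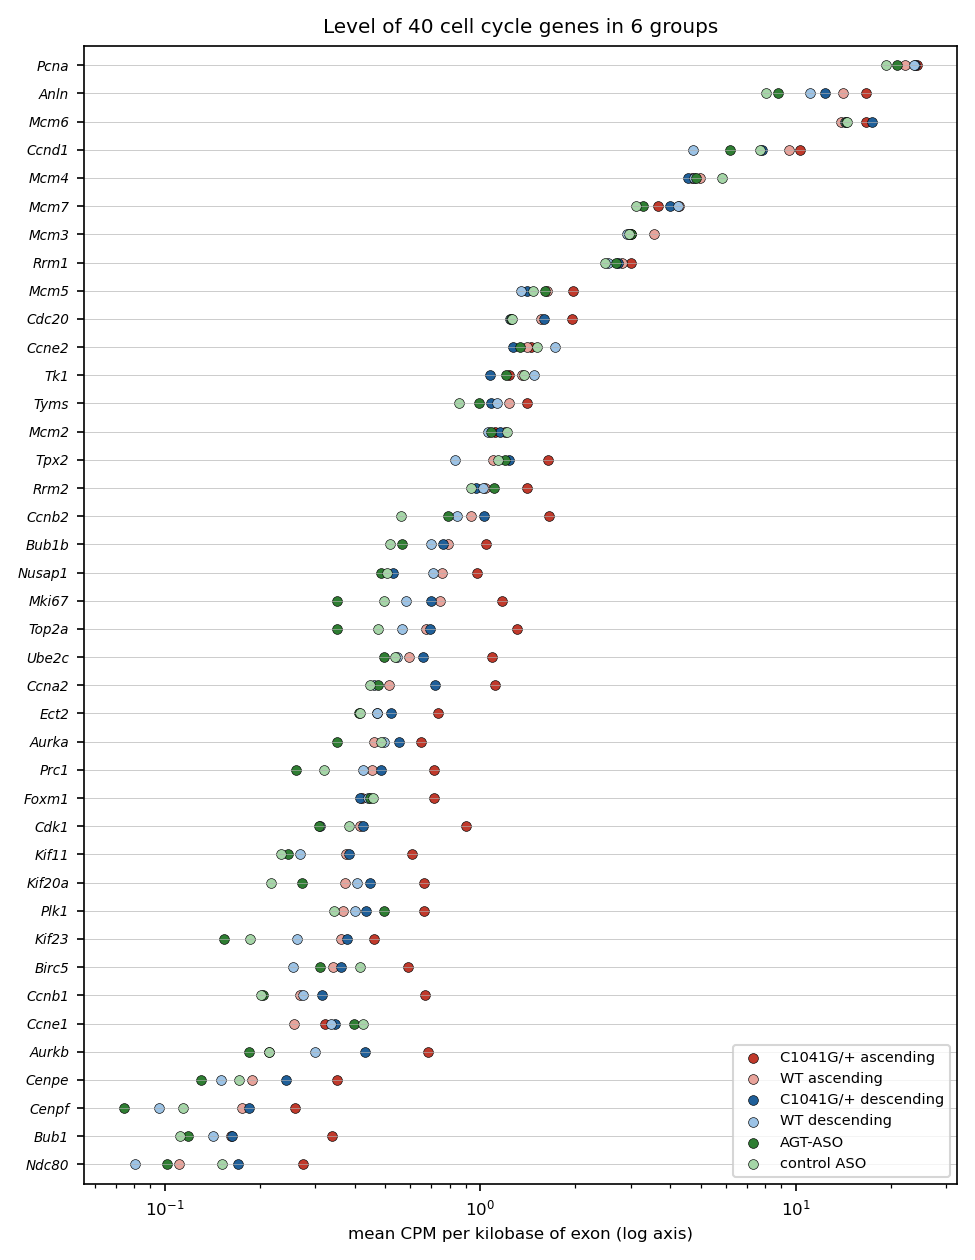
Mean CPM per kilobase of exon (log axis) of the 40 genes, ordered by their level in WT ascending aorta, with 1 point per group. In WT ascending aorta Pcna (22.2) is at the top and Ndc80 (0.111) at the bottom.

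One library stood apart, C1041G/+ ascending library 2. It was the highest of the 8 ascending libraries in 33 of the 40 genes. Its ratio to the mean of the other 3 C1041G/+ ascending libraries had a median of 2.25 over the 40 genes, was at least 2 in 21 genes and was under 1.5 in 12. The highest ratios were those of mitotic genes, with 4.11 for Ccnb1, 3.76 for the kinetochore gene Ndc80, 3.68 for Ube2c, the ubiquitin-conjugating enzyme of the anaphase-promoting complex, 3.61 for Top2a, the topoisomerase that untangles chromosomes, and 3.57 for the Polo kinase Plk1. The lowest were 0.895 for Mcm4, 0.918 for the S phase cyclin Ccne2, 0.948 for Rrm1, a subunit of ribonucleotide reductase, and 0.999 for Mcm6. The promoter lines of Cdk1 and Ccnb1 belong to genes with ratios of 2.53 and 4.11, and that of Mcm6 to a gene with a ratio of 0.999. That of Nusap1, which held no motif, belongs to a gene with a ratio of 2.17. No link between motifs and ratios was tested over the members. The descending library that shares number 2 was the highest of the 8 descending libraries in 20 of the 40 genes, with a median ratio of 1.32 to the other 3 C1041G/+ descending libraries.

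C1041G/+ ascending library 2 also had the highest level of T cell and thymocyte markers. The 15 markers summed to 217 CPM there and to 25.2, 30.7 and 8.26 CPM in C1041G/+ ascending libraries 4, 6 and 8, against 34.2, 81.9, 11.3 and 7.19 CPM in WT ascending libraries 1, 3, 5 and 7. In descending aorta the sums were 61.4, 11.2, 12.2 and 4.48 CPM in C1041G/+ libraries 2, 4, 6 and 8 and 33.6, 19.98, 5.54 and 5.48 CPM in WT libraries 1, 3, 5 and 7. Rag1, the recombinase of developing lymphocytes, stood at 49.1 CPM in C1041G/+ ascending library 2, at 0.951 to 6.39 CPM in the other 3 C1041G/+ ascending libraries and at 0.287 to 18.2 CPM in WT ascending libraries. Ptcra, the alpha chain of the precursor T cell receptor, was at 1.03 CPM in library 2 and at 0 in C1041G/+ ascending libraries 4 and 8 and WT ascending libraries 1, 3 and 7. WT ascending library 3, with the second highest marker sum, was the highest of the 8 ascending libraries in 1 of the 40 genes. C1041G/+ ascending library 2 held 33 of these places, so that count says little about WT ascending library 3. Among the WT ascending libraries, library 3 was the highest for Mki67 (8.79 CPM) and the lowest for Top2a (5.08 CPM). No T cell marker passed the test between genotypes in ascending aorta, where 14 of 14 tested markers were higher in C1041G/+ libraries (median log2 fold change 1.06). Other immune markers leaned the same way, with all 7 B lymphocyte (median log2 fold change 0.72), all 7 tested neutrophil and mast cell (0.72) and all 10 macrophage markers (0.33) higher in C1041G/+ ascending aorta, and none called. Of the 8 fibroblast markers 1 was higher (-0.40), with Dpt called lower, and of the 8 smooth muscle markers 6 were higher (0.22), with Tagln called higher. Of the 9 heart muscle markers 1 was higher (-0.78), and of the 7 tested adipocyte markers 1 (-0.63). Without library 2 the medians were -0.53 for T cell, 0.47 for B lymphocyte, 0.25 for neutrophil and mast cell, 0.23 for macrophage, -0.38 for fibroblast, 0.29 for smooth muscle, -0.63 for heart muscle and -0.31 for adipocyte markers, and no marker of these lists was called. The part of these cells in the cell cycle values was not tested, and values without library 2 are given beside those that it moves.

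**Figure D2:**
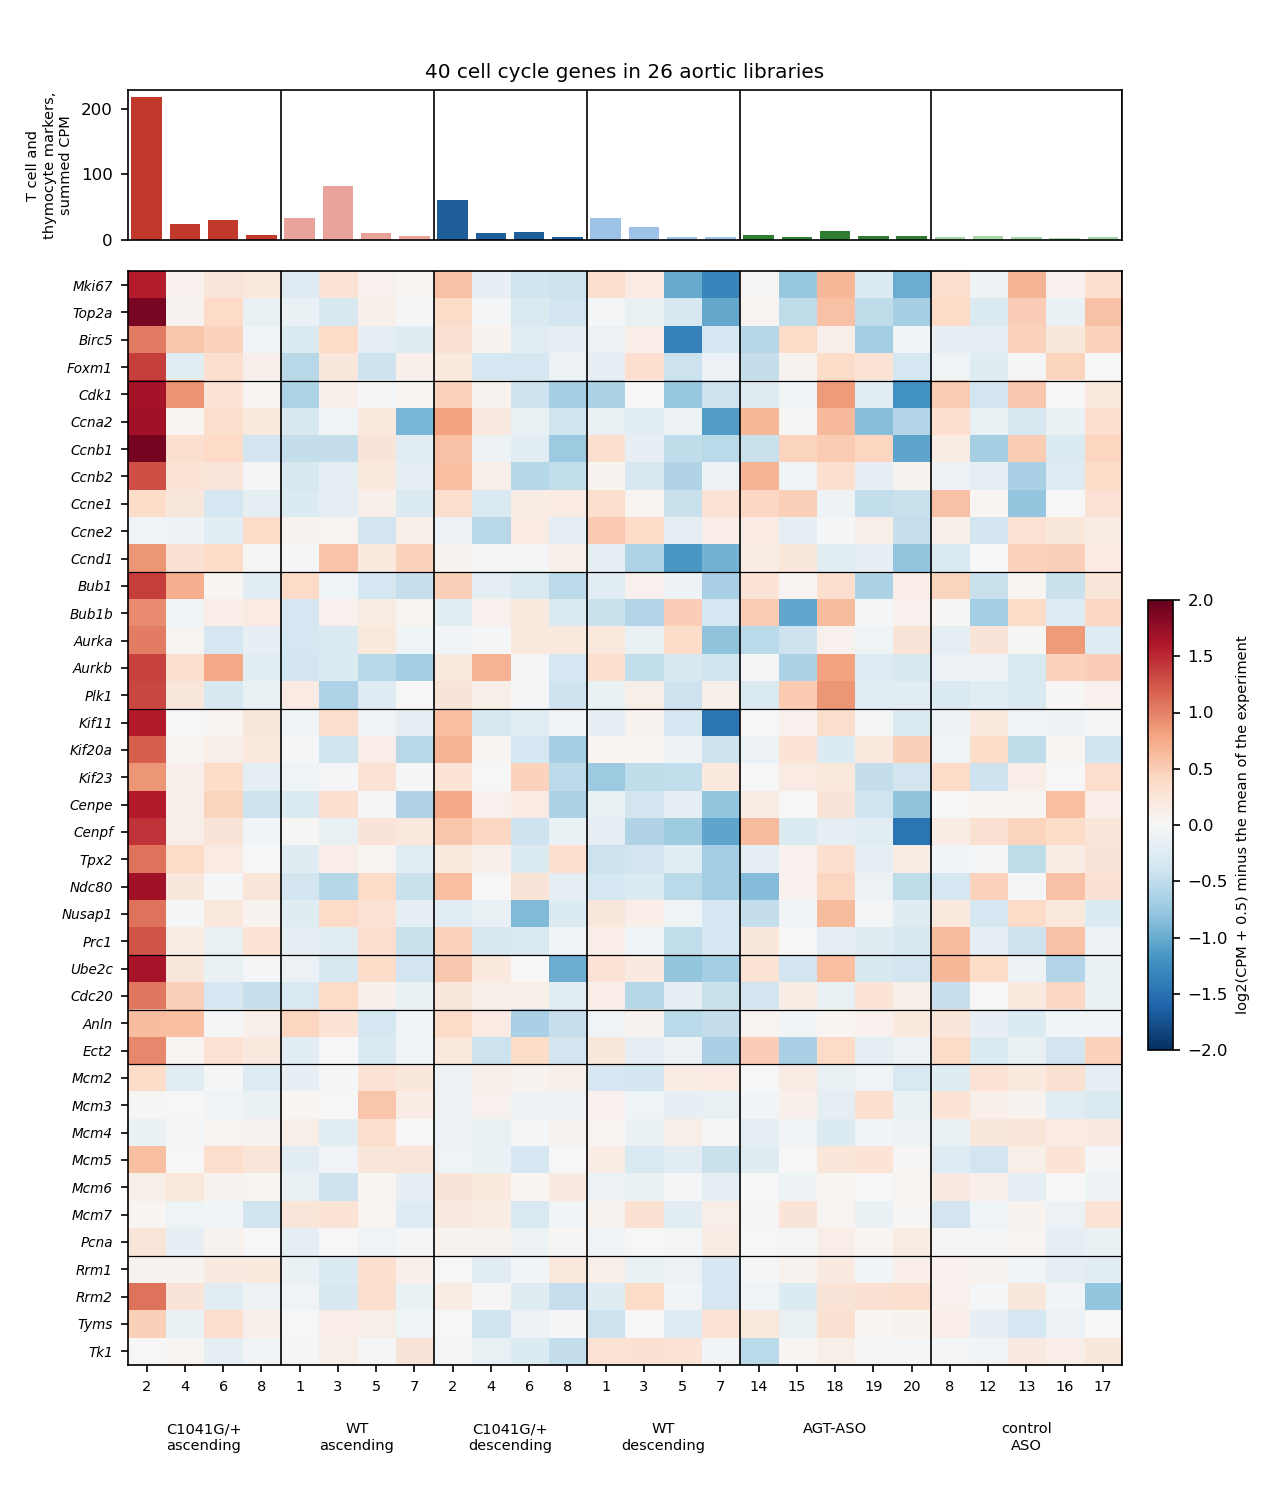
Level of each of the 40 genes (rows, by role, lines between roles) in each of the 26 libraries (columns, by group and library number), as log2(CPM + 0.5) minus the gene's mean over the untreated or the antisense libraries. Bars above give the summed CPM of 15 T cell and thymocyte markers, and C1041G/+ ascending library 2 is highest both in the bars (217 CPM) and in 33 of 40 genes among ascending libraries.

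**Figure D3:**
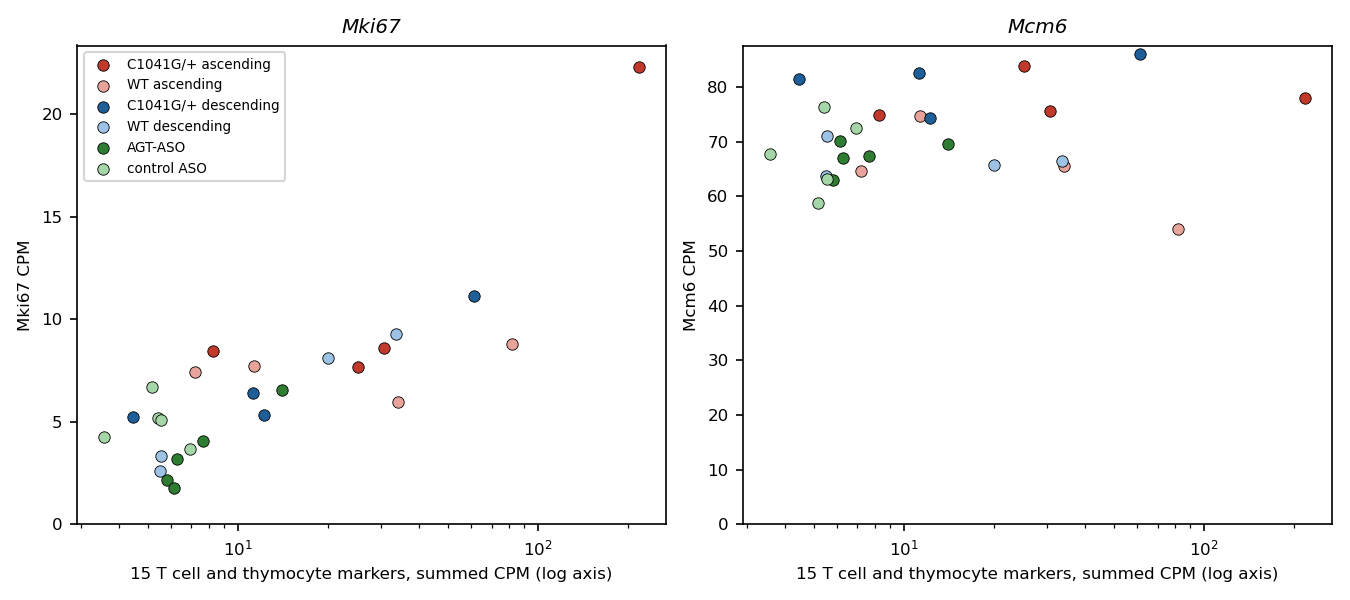
CPM of Mki67 (left) and Mcm6 (right) against the summed CPM of the 15 T cell and thymocyte markers (log axis), 1 point per library, coloured by group. C1041G/+ ascending library 2 lies at the upper right for Mki67 (22.3 CPM), and within the range of its group for Mcm6 (78.1 CPM).

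The first comparison asked whether the mutation changes the genes in ascending aorta. No member passed the test (0 of 40, edgeR quasi-likelihood F test, Benjamini-Hochberg adjusted p under 0.05 over 15645 genes), while 2.19% of all genes did. At an unadjusted p under 0.05 there were 14 of 40, against 16.2% of all genes. DESeq2 called 2, Aurkb and Mcm6, against 2.51% of 30783 genes. That larger set includes genes below the edgeR filter, here and in later DESeq2 shares, so DESeq2 and edgeR shares are not alike. The genes leaned one way, with 35 of 40 higher in C1041G/+ libraries (against 48.0% of all genes) and a median log2 fold change of 0.54, against -0.01 over all genes. Without C1041G/+ ascending library 2 the median was 0.13, 31 of 40 were higher, 2 had an unadjusted p under 0.05 and none passed the adjusted test. In that fit, 1.03% of all genes passed.

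Mki67, the nuclear protein of cycling cells, lies at chr7:135689784-135716361 (GRCm38, minus strand). It had 22.3, 7.67, 8.62 and 8.46 CPM in C1041G/+ ascending libraries 2, 4, 6 and 8, against 5.98, 8.79, 7.70 and 7.43 CPM in WT ascending libraries 1, 3, 5 and 7. Only library 2 lay above 8.79 CPM, the highest WT value. The log2 fold change was 0.66 ± 0.41 (SE; adjusted p = 0.461 by edgeR), and 0.14 ± 0.37 without library 2. Top2a had 25.7, 6.85, 8.73 and 5.81 CPM in C1041G/+ libraries, against 5.87, 5.08, 7.04 and 6.28 CPM in WT libraries. Its log2 fold change was 0.97 ± 0.39 (edgeR adjusted p = 0.224), and 0.23 ± 0.24 without library 2. For Mki67 and Top2a the difference therefore came down to within 1 standard error of 0 once 1 library was removed. Foxm1, the transcription factor of mitotic genes, had 7.77, 2.23, 3.49 and 2.90 CPM in C1041G/+ libraries and 1.65, 3.22, 1.89 and 2.92 CPM in WT libraries. The difference of Foxm1 was 0.76 ± 0.34 (edgeR adjusted p = 0.284), and 0.24 ± 0.29 without library 2. Birc5, which encodes survivin of the chromosomal passenger complex, completed this role with 0.79 ± 0.41, and 0.51 ± 0.43 without library 2.

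Among the kinases, Aurkb had the lowest p of all 40 genes. It encodes Aurora B, the kinase of the passenger complex that corrects chromosome attachment, and lies at chr11:69045647-69051664. It had 3.55, 1.47, 2.18 and 0.851 CPM in C1041G/+ ascending libraries, against 0.694, 0.795, 0.561 and 0.479 CPM in WT libraries, and the groups did not overlap. The log2 fold change was 1.67 ± 0.43 with an edgeR adjusted p of 0.0536, which did not pass. Without library 2 it was 1.23 ± 0.42 and the edgeR adjusted p was 0.2315. Aurkb passed with DESeq2 (adjusted p = 0.0118), with no filter on low counts (edgeR adjusted p = 0.0268) and without C1041G/+ ascending library 8 (edgeR adjusted p = 0.0199), and its adjusted p ranged up to 0.299 over the alternatives. Cdk1 had 8.16, 4.57, 2.78 and 2.30 CPM in C1041G/+ libraries and 1.28, 2.43, 2.19 and 2.30 CPM in WT libraries, so the groups overlapped. Its log2 fold change was 1.12 ± 0.38 (edgeR adjusted p = 0.143), and 0.64 ± 0.35 without library 2. The other kinase and checkpoint genes, Bub1, Bub1b, Aurka and Plk1, were at 1.08, 0.40, 0.51 and 0.87 with all libraries, and at 0.52, 0.09, -0.05 and 0.13 without library 2. The median of the 5 genes of that role was 0.87, and 0.13 without library 2.

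Ndc80, which anchors microtubules at the kinetochore, had 3.97, 1.14, 0.873 and 1.15 CPM in C1041G/+ ascending libraries and 0.587, 0.442, 1.33 and 0.527 CPM in WT libraries. Its log2 fold change was 1.33 ± 0.48 (edgeR adjusted p = 0.166), and 0.55 ± 0.41 without library 2. All 9 spindle, kinetochore and motor genes were higher in C1041G/+ libraries, by a median log2 fold change of 0.66, and 8 of 9, by 0.22, without library 2. Among the cyclin and kinase genes, the median was 0.83 with all libraries and 0.36 without library 2, and it ranged from 0.04 for the cyclin E gene Ccne2 to 1.33 for Ccnb1 (0.48 ± 0.43 without library 2). Ube2c and Cdc20, the activator of the anaphase-promoting complex, were at 0.89 and 0.32, and at 0.14 and -0.11 without library 2. Of the cytokinesis genes, Ect2, an exchange factor for RhoA, had 6.02, 2.94, 3.60 and 3.30 CPM in C1041G/+ libraries, all above the 2.40, 2.83, 2.24 and 2.63 CPM of WT libraries, at 0.65 ± 0.27 with all libraries and 0.37 ± 0.27 without library 2 (edgeR adjusted p 0.245 and 0.660). Groups without overlap, all higher in C1041G/+, were seen for 3 of 40 genes (Aurkb, Ect2 and Mcm6), against 4.92% of all genes.

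**Figure D4:**
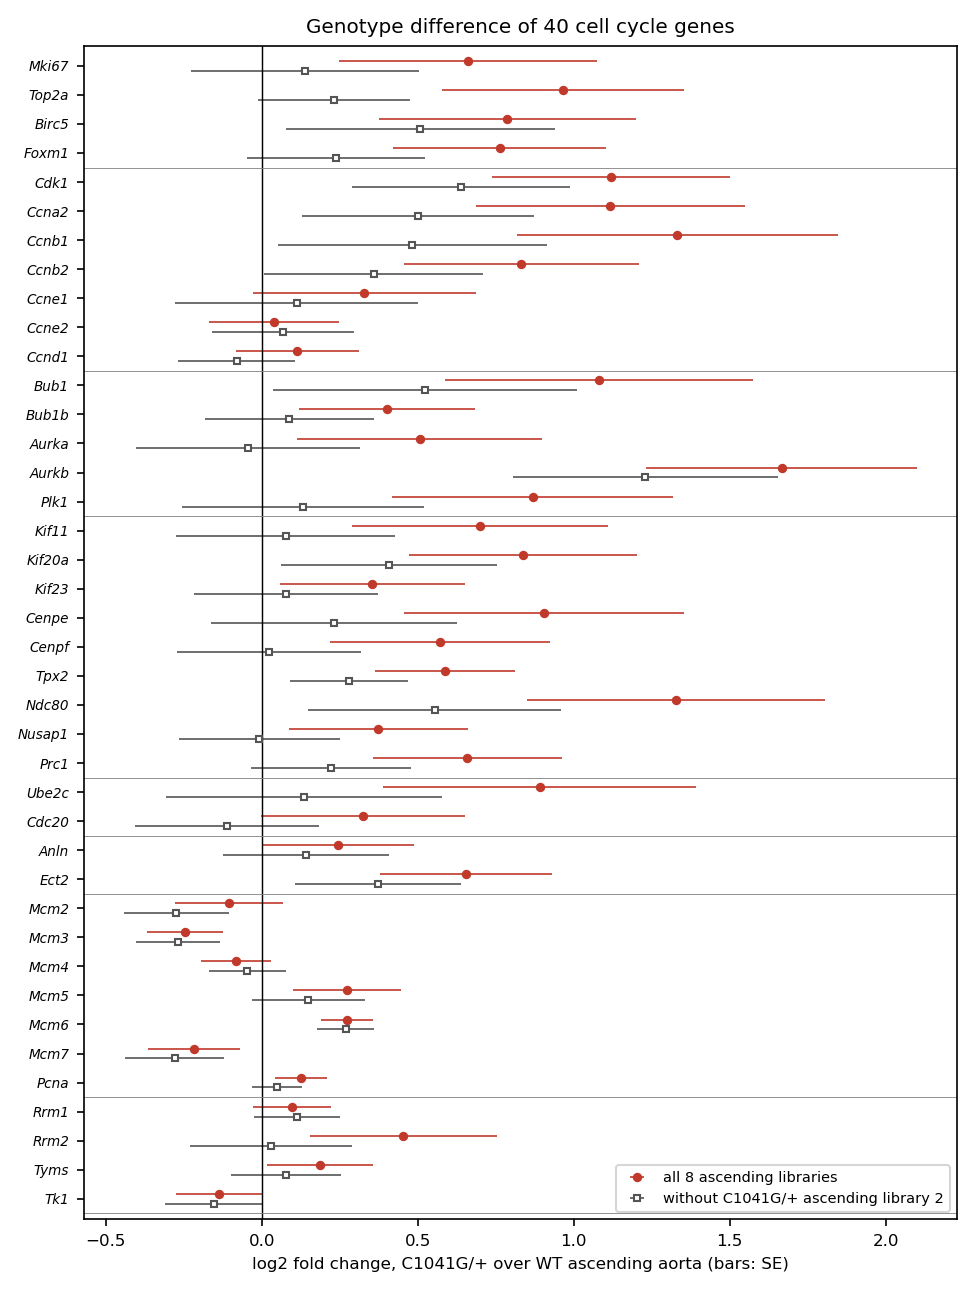
Log2 fold change of C1041G/+ over WT ascending aorta for the 40 genes (grouped by role), with all 8 libraries (filled circles) and without C1041G/+ ascending library 2 (open squares); bars are standard errors. The mitotic genes move towards 0 without that library (median of all 40 genes 0.54 with it and 0.13 without), while Mcm6 keeps 0.27.

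Replication genes did not share this lean. The 7 genes of licensing and DNA synthesis had a median log2 fold change of -0.08 in ascending aorta, a range of -0.25 to 0.27 and 3 of 7 higher in C1041G/+ libraries. Without library 2 the median was -0.05. Mcm6 had 78.1, 83.9, 75.6 and 74.9 CPM in C1041G/+ ascending libraries, against 65.6, 54.1, 74.7 and 64.7 CPM in WT libraries. The groups did not overlap, by a margin of less than 1 CPM. The log2 fold change was 0.27 ± 0.08 (edgeR adjusted p = 0.101), and 0.27 ± 0.09 without library 2. It passed with DESeq2 (adjusted p = 0.0474) and in edgeR without WT ascending library 5 (adjusted p = 0.0447). Pcna had 67.0, 50.3, 59.2 and 56.6 CPM in C1041G/+ libraries and 49.3, 55.9, 53.5 and 54.9 CPM in WT libraries. Its log2 fold change was 0.13 ± 0.08 (edgeR adjusted p = 0.482), and 0.05 ± 0.08 without library 2. Ccnd1, the D cyclin, had 66.5, 44.7, 46.6 and 36.7 CPM in C1041G/+ ascending libraries and 35.3, 53.5, 41.4 and 49.6 CPM in WT libraries. The Ccnd1 groups overlapped, and the log2 fold change was 0.11 ± 0.20 (edgeR adjusted p = 0.821) and -0.08 without library 2. The 4 nucleotide supply genes (Rrm1, Rrm2, Tyms and Tk1) ranged from -0.14 for Tk1 to 0.45 for Rrm2. Without library 2 they ranged from -0.155 for Tk1 to 0.11 for Rrm1, with Rrm2 at 0.03 ± 0.26.

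The same question was asked in descending aorta. Again 0 of 40 genes passed the edgeR test, against 1.21% of all genes. There were 5 at an unadjusted p under 0.05, against 10.8% of all genes, and DESeq2 called 1, Ccnd1, against 1.33% of all genes. The median log2 fold change was 0.17 with 32 of 40 higher in C1041G/+ libraries (against 49.8% of all genes), and 0.04 with 21 of 40 higher without C1041G/+ descending library 2. Markers of other cells also leaned between these groups, with 8 of 8 mesothelial (median log2 fold change 0.73), 10 of 10 macrophage (0.37), 6 of 6 Schwann cell (0.48) and 12 of 14 T cell markers (0.59) higher in C1041G/+ libraries. Of the erythroid markers 1 of 6 was higher (-1.23), and the smooth muscle gene Des was called lower. Their part in these values was not tested. Mki67 had 11.1, 6.40, 5.34 and 5.21 CPM in C1041G/+ descending libraries 2, 4, 6 and 8, against 9.30, 8.13, 3.32 and 2.58 CPM in WT descending libraries 1, 3, 5 and 7. In each genotype the library with the highest Mki67 value also had the highest T cell marker sum, and the groups overlapped (log2 fold change 0.26 ± 0.43, edgeR adjusted p = 0.902). Top2a had 8.55, 6.40, 5.23 and 4.87 CPM in C1041G/+ libraries and 6.42, 5.79, 5.13 and 2.95 CPM in WT libraries (0.30 ± 0.40, edgeR adjusted p = 0.873).

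In descending aorta Mcm6 had 86.0, 82.6, 74.4 and 81.5 CPM in C1041G/+ libraries, against 66.4, 65.7, 71.0 and 63.8 CPM in WT libraries, with no overlap. The log2 fold change was 0.28 ± 0.08 (edgeR adjusted p = 0.136), beside 0.27 ± 0.08 in ascending aorta. Neither passed the adjusted test, and the ascending and descending libraries that share a number deviate together, so the 2 values are not independent. Ccnd1 had 37.9, 34.9, 35.3 and 38.7 CPM in C1041G/+ descending libraries, against 31.4, 23.3, 15.7 and 18.5 CPM in WT libraries. The groups did not overlap, WT libraries spread more widely, and the log2 fold change was 0.72 ± 0.20 (edgeR adjusted p = 0.119). The adjusted p for Ccnd1 was 0.0187 with DESeq2 and 0.0237 in edgeR without WT descending library 1. Tk1, the thymidine kinase of the salvage pathway, had 6.41, 5.89, 5.39 and 4.58 CPM in C1041G/+ libraries and 8.16, 8.29, 8.10 and 6.33 CPM in WT libraries (-0.47 ± 0.14, edgeR adjusted p = 0.134). Cenpf, a large kinetochore protein, had 3.94, 3.51, 1.76 and 2.24 CPM in C1041G/+ libraries and 2.18, 1.47, 1.34 and 0.949 CPM in WT libraries (0.94 ± 0.38, edgeR adjusted p = 0.332). Groups without overlap, all higher in C1041G/+, were those of Ccnd1, Mcm6 and Ndc80, 3 of 40 against 3.48% of all genes.

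**Figure D5:**
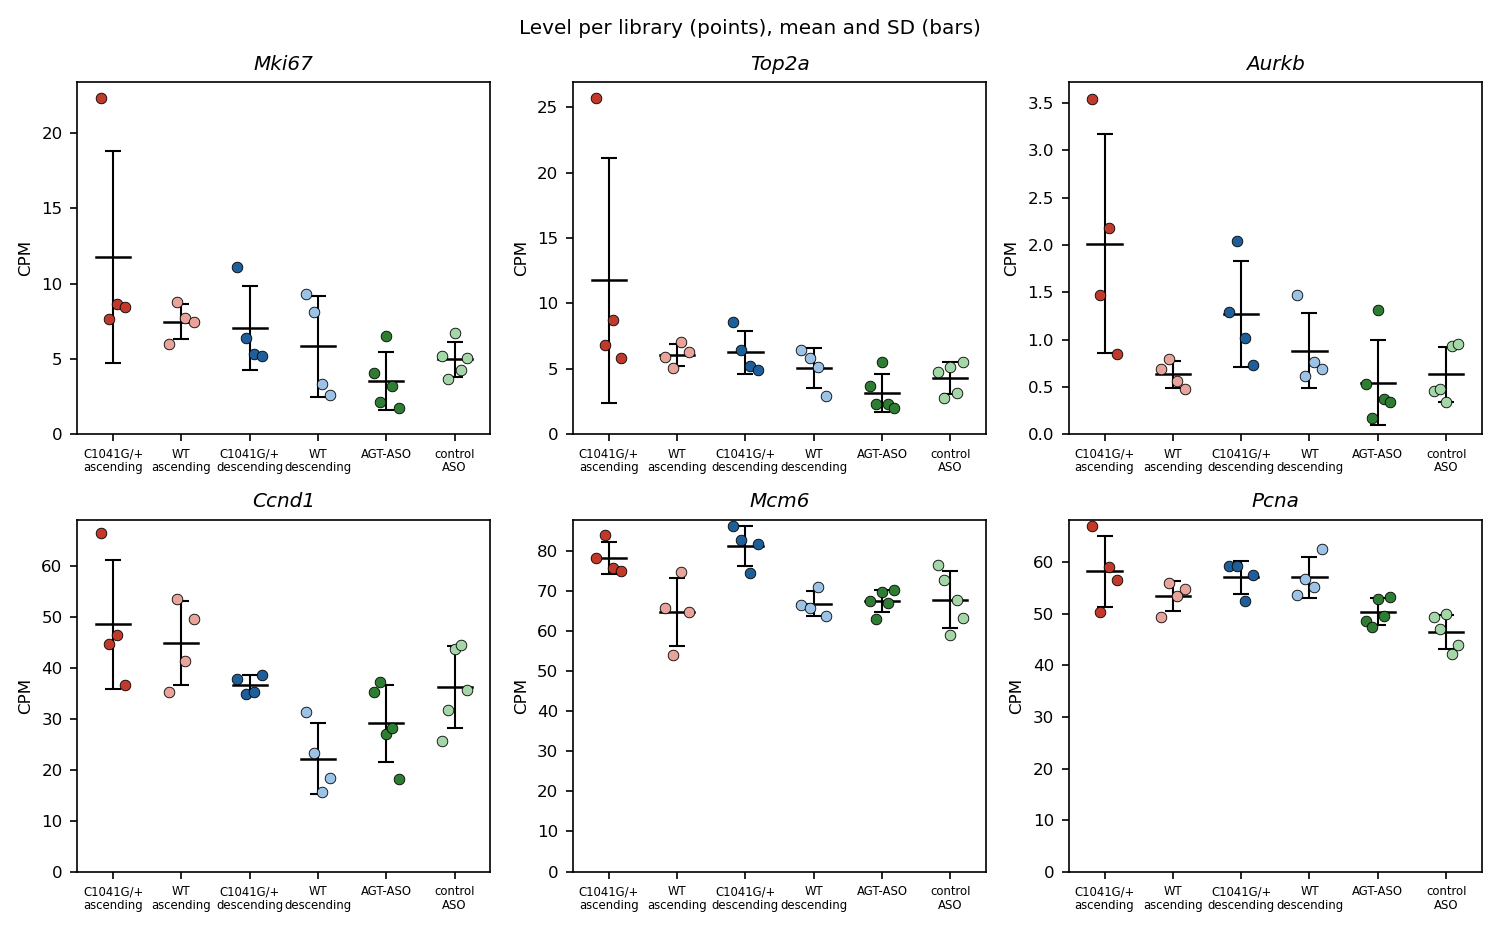
CPM of 6 genes in each library (points) with the mean and SD of each group (lines and bars), C1041G/+ left of WT and AGT-ASO left of control ASO; both experiments are scaled apart. Ccnd1 is lowest in WT descending aorta (15.7 to 31.4 CPM). All Mcm6 values of untreated C1041G/+ libraries lie above those of WT libraries within each region. C1041G/+ ascending library 2 is far above its group for Mki67 (22.3 CPM) and Top2a (25.7 CPM).

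Comparing regions within WT mice gave the one call among the 40 genes. Ccnd1 was higher in ascending aorta, with 35.3, 53.5, 41.4 and 49.6 CPM in WT ascending libraries 1, 3, 5 and 7, against 31.4, 23.3, 15.7 and 18.5 CPM in WT descending libraries of the same numbers. The groups did not overlap and each number was higher in ascending aorta. The ratio was 2.02-fold, a log2 fold change of 1.02 ± 0.20 with an edgeR adjusted p of 0.0025, and it passed in all 14 alternative analyses (adjusted p from 1.4e-05 to 0.0151). Ccnd1 lies at chr7:144929931-144939925 on the minus strand of GRCm38, and the gene whose exon overlaps it on the plus strand is LTO1. This was 1 of 40 genes, against 11.1% of all genes called between the regions and 7.82% called higher in ascending aorta. At an unadjusted p under 0.05 there were 3 of 40, against 21.1% of all genes. Markers of other tissues differed strongly between the same libraries. The 8 mesothelial markers, all called, summed to 302 to 428 CPM in WT ascending and 7.52 to 14.6 CPM in WT descending libraries, and 7 of 9 heart muscle markers were called. Of the others, 4 of 8 fibroblast and 5 of 6 Schwann cell markers were called higher, 3 of 7 B lymphocyte markers lower, and 2 of 8 endothelial markers higher and 5 lower, while all 14 tested T cell markers were higher with none called (median log2 fold change 1.14). Their part in the Ccnd1 value was not tested.

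The median log2 fold change over the 40 genes between the WT regions was 0.15, with 29 of 40 higher in ascending aorta, against 48.0% of all genes. Cenpf had 2.56, 2.21, 3.11 and 2.97 CPM in WT ascending libraries, all above the 2.18, 1.47, 1.34 and 0.949 CPM of WT descending libraries (0.87 ± 0.37, edgeR adjusted p = 0.182; 0.0477, passing, without the 3 libraries with a T cell score above 1.5). Groups without overlap were those of Ccnd1 and Cenpf, 2 of 40 against 9.19% of all genes. Mcm3, a helicase subunit, was at 0.28 ± 0.12 (edgeR adjusted p = 0.174) and Tpx2, an activator of Aurora A, at 0.40 ± 0.23 (edgeR adjusted p = 0.364). With the library number as a replicate block, 3 genes passed, against 15.5% of all genes. These were Ccnd1 (1.04 ± 0.22, edgeR adjusted p = 0.0106), Anln (0.33 ± 0.08, edgeR adjusted p = 0.00757) and Cenpf (0.89 ± 0.28, edgeR adjusted p = 0.0485). Anln had 160, 143, 92.4 and 114 CPM in WT ascending libraries and 112, 124, 81.2 and 85.1 CPM in WT descending libraries, higher in ascending aorta within each number.

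In C1041G/+ mice none of the 40 genes passed between regions (0 of 40 by edgeR, against 9.92% of all genes). There were 8 at an unadjusted p under 0.05, against 20.1% of all genes, and DESeq2 called 1, Nusap1, against 6.17% of all genes. The median log2 fold change of ascending over descending aorta was 0.50 with 36 of 40 positive (against 48.5% of all genes), and 0.14 with 28 of 40 positive without C1041G/+ ascending library 2. In the fit without that library 0 of 40 passed, against 7.88% of all genes. Nusap1 had 6.66, 2.77, 3.38 and 3.05 CPM in C1041G/+ ascending libraries 2, 4, 6 and 8, against 2.42, 2.55, 1.33 and 2.29 CPM in C1041G/+ descending libraries of the same numbers. Its groups did not overlap, the only such case of 40 against 8.55% of all genes (0.89 ± 0.30, edgeR adjusted p = 0.0682). Nusap1 passed without C1041G/+ ascending library 4 (edgeR adjusted p = 0.0434), and without library 2 it was at 0.52 ± 0.26 (edgeR adjusted p = 0.336). Cdk1 was at 1.09 ± 0.39 (edgeR adjusted p = 0.0905). It passed without C1041G/+ ascending library 8 (edgeR adjusted p = 0.0364) or C1041G/+ descending library 2 (0.0466), and had an edgeR adjusted p of 0.419 without C1041G/+ ascending library 2. Mcm5, another helicase subunit, was at 0.48 ± 0.18 (edgeR adjusted p = 0.106) and Top2a at 0.92 ± 0.39 (edgeR adjusted p = 0.1835). Without C1041G/+ ascending library 2 they were at 0.36 ± 0.18 and 0.19 ± 0.24. With the replicate block, 3 genes passed, against 14.8% of all genes. These were Cdk1 (1.02 ± 0.21, edgeR adjusted p = 0.00407), Nusap1 (0.84 ± 0.25, edgeR adjusted p = 0.0383) and Anln (0.46 ± 0.08, edgeR adjusted p = 0.000752). Anln had 181, 180, 116 and 127 CPM in C1041G/+ ascending libraries and 155, 133, 74.95 and 85.9 CPM in C1041G/+ descending libraries, again higher in ascending aorta within each number. Ccnd1 was at 0.41 ± 0.20 (edgeR adjusted p = 0.272), and at 0.22 ± 0.19 without that library. The mesothelial markers, again all 8 called, summed to 352 to 606 CPM in C1041G/+ ascending and 13.2 to 28.9 CPM in C1041G/+ descending libraries. Of the heart muscle markers 6 of 9 were called higher, and all 14 tested T cell markers were higher with none called (median 1.71). Their part in these values was not tested.

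Whether the genotype difference depended on the region was tested by the interaction, the difference in ascending minus that in descending aorta. It was called for 0 of 40 genes by edgeR and by DESeq2, against 0.00639% of all genes by edgeR and 0.12% by DESeq2. Of the 40 genes 30 were positive, against 49.3% of all genes. Only Ccnd1 had an unadjusted p under 0.05 (1 of 40, against 5.08% of all genes), at -0.61 ± 0.28 with an edgeR adjusted p of 0.966, so its region difference was not shown to differ between genotypes. Aurkb was at 1.15 ± 0.62, Foxm1 at 0.84 ± 0.49 and Nusap1 at 0.79 ± 0.42, with edgeR adjusted p-values of 0.986, 0.994 and 0.985. Without C1041G/+ ascending library 2 they were at 0.71 ± 0.58, 0.32 ± 0.39 and 0.41 ± 0.36 on the log2 scale. The median over the 40 genes was 0.30, and 0.01 without C1041G/+ ascending library 2.

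AGT-ASO was compared with control ASO in mutant ascending aorta, to ask whether lowering angiotensinogen changes these genes. Of the 39 genes tested (Aurkb was below the count filter), edgeR called 0, against 0.0668% of all genes. At an unadjusted p under 0.05 there was 1, against 12.7%. DESeq2 called 0, against 0.918% of 28321 genes. The genes were spread to both sides, 17 higher (against 48.5% of all genes) and 22 lower with AGT-ASO, with a median log2 fold change of -0.01. No gene had groups without overlap, against 1.31% of all genes higher and 1.14% lower. Mcm4 had the lowest p, with 16.7, 18.1, 15.7, 18.3 and 17.7 CPM in AGT-ASO libraries 14, 15, 18, 19 and 20, against 17.1, 22.3, 22.5, 21.3 and 21.4 CPM in control ASO libraries 8, 12, 13, 16 and 17. Control library 8 was within the AGT-ASO range and the other 4 were above it (-0.27 ± 0.10, edgeR adjusted p = 0.270). Mki67 had 4.04, 2.14, 6.55, 3.21 and 1.74 CPM with AGT-ASO and 5.19, 3.66, 6.69, 4.25 and 5.09 CPM with control ASO (-0.49 ± 0.31, edgeR adjusted p = 0.540). Ccnd1 had 35.3, 37.2, 27.1, 28.1 and 18.2 CPM with AGT-ASO and 25.7, 31.7, 43.7, 44.6 and 35.6 CPM with control ASO (-0.31 ± 0.20, edgeR adjusted p = 0.568).

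Pcna ran slightly the other way, at 48.6, 47.4, 53.0, 49.7 and 53.4 CPM with AGT-ASO and 49.3, 47.0, 49.98, 42.3 and 44.0 CPM with control ASO (0.12 ± 0.07, edgeR adjusted p = 0.519). By role, the 4 genes of chromosome structure, the passenger complex and transcription were all lower with AGT-ASO, by a median of -0.43, and the 9 spindle genes had a median of -0.27 with 3 of 9 higher. Replication genes were at a median of 0.02 and nucleotide supply genes at 0.16. The 15 T cell and thymocyte markers summed to 5.81 to 13.98 CPM with AGT-ASO and 3.58 to 6.93 CPM with control ASO, far below C1041G/+ ascending library 2. AGT-ASO library 18, which had the highest of these sums, was the highest of the 10 libraries in 11 of the 40 genes. Control ASO libraries 8 and 16, with sums of 5.40 and 3.58 CPM, were each the highest in 7. Heart muscle markers summed to 328 to 714 CPM with AGT-ASO and 719 to 1484 CPM with control ASO, and mitochondrial genes took 3.76% to 6.996% and 5.52% to 11.1% of the counts. Their part in these values was not tested.

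Other genes of the cell cycle were read from the same fits. The list of 67 other G2 and mitosis genes had 64 tested in ascending aorta, of which 61 were higher in C1041G/+ libraries with a median log2 fold change of 0.52, and 50, with a median of 0.18, without library 2. Of these 64, 1 was called higher, against 1.18% of all genes, and 0 lower. This was Stil, a protein of centriole assembly, with 4.997, 2.39, 4.75 and 4.11 CPM in C1041G/+ ascending libraries against 1.65, 1.37, 1.58 and 1.49 CPM in WT ascending libraries. This difference of Stil was 1.42 ± 0.29 (edgeR adjusted p = 0.0125), and 1.30 without library 2, where the edgeR adjusted p was 0.0522 and it no longer passed. Without the 3 libraries with a T cell score above 1.5 the edgeR adjusted p of Stil was 0.159. The 41 other replication and S phase genes tested had a median of 0.04, and none was called by genotype in either region. None of the 19 transcription factors (17 tested in the antisense libraries) and none of the 9 G1 cyclins and kinases was called in any comparison. The share of all genes called ran from 0.00639% for the interaction to 11.1% between the WT regions.

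Of the 30 brakes of the cycle tested, 0 were called by genotype in ascending aorta and 1, lower, in descending aorta, where 0.531% of all genes were called lower. Cdkn1c, the kinase inhibitor p57, fell in C1041G/+ descending aorta to 15.3, 19.1, 18.95 and 18.6 CPM, against 24.5, 24.8, 22.8 and 28.6 CPM in WT descending aorta (-0.48 ± 0.09, edgeR adjusted p = 0.0117; 0.0556, no longer passing, in a fit of those 8 libraries alone). In C1041G/+ mice it was higher in ascending aorta, at 24.0, 28.7, 25.1 and 28.5 CPM (0.56 ± 0.09, edgeR adjusted p = 0.000463). Between regions, 2 of 30 brakes were called in C1041G/+ mice, against 9.92% of all genes, and 2 of 30 in WT mice, against 11.1% of all genes. Cdkn2b, the kinase inhibitor p15, was higher in ascending aorta of both genotypes. It averaged 8.08 ± 1.16 CPM in C1041G/+ ascending and 2.84 ± 0.70 CPM in C1041G/+ descending aorta (1.51 ± 0.21, edgeR adjusted p = 5.7e-05), and 5.57 ± 1.34 CPM in WT ascending and 2.15 ± 0.29 CPM in WT descending aorta (SD, n = 4 each; 1.38 ± 0.21, edgeR adjusted p = 0.000161). Gadd45b, a stress-response brake, fell in WT ascending aorta to 27.7 ± 5.15 CPM, against 44.5 ± 8.58 CPM in WT descending aorta (-0.69 ± 0.18, edgeR adjusted p = 0.0161), and did not pass without WT ascending library 5, without WT descending library 3 or with no filter on low counts (edgeR adjusted p 0.058, 0.0693 and 0.0562).

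Between regions, 2 of 64 mitosis genes were called in each genotype, all higher in ascending aorta, against 6.41% of all genes in C1041G/+ mice and 7.82% in WT mice. Calls lower in ascending aorta were made for 3.51% and 3.31% of all genes. Psrc1, a microtubule-binding spindle protein, was higher in ascending aorta in both, at 4.92 ± 1.07 CPM in C1041G/+ ascending and 1.66 ± 0.46 CPM in C1041G/+ descending aorta (1.56 ± 0.24, edgeR adjusted p = 0.00016), and at 3.54 ± 0.73 CPM in WT ascending and 1.31 ± 0.18 CPM in WT descending aorta (SD, n = 4 each; 1.43 ± 0.24, edgeR adjusted p = 0.000416). Espl1, the separase that splits sister chromatids, was called in WT mice (0.74 ± 0.21, edgeR adjusted p = 0.0284), and Cenpw, a centromere protein, in C1041G/+ mice (0.82 ± 0.25, edgeR adjusted p = 0.0387). Of the 41 replication genes, Dut, the dUTPase, was called higher (0.57 ± 0.14, edgeR adjusted p = 0.0145) and Prim1, a DNA primase, lower (-0.49 ± 0.15, edgeR adjusted p = 0.0386) in C1041G/+ ascending over descending aorta, and none in WT mice. Espl1 did not pass in 5 of the 8 fits without 1 library, with edgeR adjusted p up to 0.0989. Cenpw failed in 7 and Prim1 in 6 of the 8 fits without 1 library, and Dut in 2. Without C1041G/+ ascending library 2, Cenpw, Dut and Prim1 did not pass (edgeR adjusted p 0.1245, 0.0604 and 0.08574). No gene of these lists was called between AGT-ASO and control ASO or by the interaction.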

How the data were processed

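RNA was extracted with a fibrous tissue kit and libraries were made with the NEBNext Ultra RNA kit, per the labels' protocols. Per the submitters' processing notes, the tools were fastp and STAR 2.6.1d and the build was mm10. Which program counted the reads, in which strand mode and on which annotation release, was not given in the sources used here. The deposited files hold raw whole-number counts per Ensembl gene for each library, without normalization by the authors. Gene names were matched for 54495 of 54532 identifiers from GENCODE M21 and the name table, and 1 of the listed context genes (Fam64a) was not matched.

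Counts were tested with edgeR 4.0.16 (R 4.3.3, limma 3.58.1) by two-sided quasi-likelihood F tests with TMM scaling and filterByExpr, 1 fit per experiment. The fit of the untreated libraries covered 15645 genes with 12 residual degrees of freedom, and that of the antisense libraries 14981 genes with 8. The coefficient of biological variation was 15.9% in the first and 17.1% in the second. Calls are Benjamini-Hochberg adjusted p under 0.05 over all genes tested. The procedure was tested on simulated data with changed genes of known fold. The simulated libraries were drawn independently, so they held no correlation between libraries and no single deviant library. Errors beside CPM are SD over libraries, and errors beside log2 fold changes are SE.

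Ascending and descending libraries that share a number deviated together, with correlations of 0.162 to 0.305 in 8 of 8 pairs against a mean of -0.033 in other pairs. Of the 8 ascending libraries, 6 correlated best with the descending library of their own number. The numbers were taken to pair the libraries. The labels do not say what a number stands for, and the pairing comes from this check. For the regions and the interaction, the replicate block was the library number as a fixed factor in the edgeR quasi-likelihood fit. For genotype, the number was a random block in voom and limma, with a consensus correlation of 0.268.

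Named genes were Mki67, Top2a, Cdk1, Ccnd1, Pcna and Foxm1, each member called, the 4 members with the smallest p in each comparison and up to 4 called genes per context list. Other genes named (Birc5, Ect2, Anln and the members of each role given with values) were chosen after their values were seen. The members and lists were chosen with earlier results of these data known. Alternatives were DESeq2 1.42.0, its size factors, no filter on low counts, fits of the compared groups alone, the replicate block and leaving out each library. DESeq2 was run without the edgeR filter, and its shares of all genes are over 30783 genes for untreated and 28321 for antisense libraries. Leaving out the 3 untreated libraries with a T cell and thymocyte score above 1.5 was chosen after seeing the data. Promoter sequences are from RefSeq, GRCm38.p6, and exon lengths and overlaps from GENCODE M21. No molecular identifiers are known to have been used, so copies made by amplification may be among the counts.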

Additional observations from a re-analysis of the deposited data

Results flagged for a closer look

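In groups of 4 or 5 libraries, 119 sets of values of the named genes were examined for a single library far from the others, and 12 were found. Chance alone gives about 1 in 20 in independent sets. These sets share libraries, and many of the genes were named for small p-values in these data. The 12 cases can therefore not be weighed against that rate. C1041G/+ ascending library 2 accounted for 5 of the 12, all as the highest of 4. They were Mki67 at 22.3 CPM (the others 7.67 to 8.62), Top2a at 25.7 CPM (5.81 to 8.73), Cenpf at 7.73 CPM (2.40 to 3.11), Nusap1 at 6.66 CPM (2.77 to 3.38) and Ndc80 at 3.97 CPM (0.873 to 1.15).

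In the same library the T cell and thymocyte markers summed to 217 CPM, against 8.26 to 30.7 CPM in the other 3 libraries of its group. Mcm6 and Rrm1 in this library were at 0.999 and 0.948 of the mean of those libraries.

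The remaining cases had 1 gene in a library each. Cdkn1c was lowest in C1041G/+ descending library 2, at 15.3 CPM (18.6 to 19.1 in the others), and Mcm3 was highest in C1041G/+ descending library 4, at 12.2 CPM (10.6 to 10.8). Ndc80 was highest in WT ascending library 5, at 1.33 CPM (0.442 to 0.587), Tk1 lowest in WT descending library 7, at 6.33 CPM (8.10 to 8.29), and Gadd45b highest in WT descending library 3, at 57.4 CPM (39.7 to 40.9). Tk1 was lowest in AGT-ASO library 14, at 4.42 CPM (6.45 to 7.26), and Mcm4 lowest in control ASO library 8, at 17.1 CPM (21.3 to 22.5).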

How the results depend on the processing

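By genotype in ascending aorta, 342 genes were called in the fit as reported, 774 with DESeq2, 121 without the 3 libraries with a T cell score above 1.5, and 163 to 347 without 1 library. Members called there, 0 as reported, were 2 with DESeq2 (against 2.51% of all genes), 1 with no filter on low counts and 0 to 1 without 1 library. By genotype in descending aorta, 189 genes were called as reported and 408 with DESeq2. Members called, 0 as reported, were 1 with DESeq2 (against 1.33% of all genes) and 0 to 1 without 1 library. Between regions in WT mice, 1 member was called as reported, against 11.1% of all genes. With the replicate block 3 were, against 15.5%, and without the T cell libraries 2 were. Between regions in C1041G/+ mice, 0 members were called as reported, against 9.92% of all genes. With DESeq2 1 was, against 6.17%, and with the replicate block 3 were, against 14.8%. Without 1 library 0 to 1 were. A member count with no share beside it cannot be read against all genes here. The interaction had 1 gene as reported, 6 with no filter, 37 with DESeq2, 13 with the replicate block and 1 to 10 without 1 library. Between AGT-ASO and control ASO there were 10 genes as reported, 147 with no filter, 260 with DESeq2, and 0 (without AGT-ASO library 15) to 180 (without control ASO library 8) without 1 library. No paired analysis was possible for the antisense libraries, because the 2 arms share no number. The replicate block changed no other call among the genes named.

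Directions turned in 5 cases. The log2 fold change of Ccnd1 by genotype in ascending aorta was -0.081 to 0.23 without 1 library, and that of Mki67 in descending aorta was -0.0502 to 0.57, and -0.0504 without the T cell libraries. In the interaction, Mki67 ranged from -0.12 to 0.71 and Top2a from -0.071 to 0.89 without 1 library, both lowest without C1041G/+ ascending library 2. For the values of named genes under the alternatives, 673 kept their direction and side of the threshold, 15 came to pass, 30 no longer passed and 5 turned. The cause of these differences was not tested. Of the 40 genes 24 had a median under 5 CPM, and what the tests can detect at such levels was not measured.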
